A study of Mus musculus with 20 samples.

Results

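Kidneys of 5 mice that received engineered immune complexes (EIC) together with the higher dose of sparsentan (EIC + S120) were compared with kidneys of 5 Control mice, 10 of the 20 libraries of the series. The 2 groups were taken whole, without selection on any measured value. All mice were homozygous female NCr nude animals, 7 weeks old, which lack a thymus and therefore most T cells. The EIC were assembled in vitro from human galactose-deficient IgA1 (Gd-IgA1) and a recombinant human IgG against it (rIgG), given in 6 tail-vein injections with 0.2 mg of the former and 0.1 mg of the latter in each. EIC + S120 mice (77 to 81) were also gavaged daily with sparsentan at 120 mg/kg for 11 days, and Control mice (651 to 655) received phosphate-buffered saline in place of EIC and the vehicle in place of the drug. Kidneys were taken on day 12. The remaining groups, EIC alone (mice 65 to 69) and EIC with sparsentan at 60 mg/kg (EIC + S60, mice 71 to 75), are used only for values set beside those of EIC + S120. No group received sparsentan without EIC, so what EIC and sparsentan each contribute to a difference from Control cannot be told apart in this comparison, and the hour of the day at which kidneys were taken is not given in the sources used here.

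Sparsentan blocks the type A endothelin receptor and the type 1 angiotensin II receptor. In the kidney, renin from the juxtaglomerular cells of the afferent arteriole starts the cascade that makes angiotensin II, and angiotensin II acting at its type 1 receptor holds renin transcription down. Immune complexes that lodge in the mesangium set off Fc receptor, complement and interferon signaling, mesangial proliferation and matrix deposition in IgA nephropathy.

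The counts summed to 12662345 to 38651781 per library in Control, where mice 651 and 652 were sequenced more deeply than the rest, and to 15915650 to 18180183 in EIC + S120. Log-scale levels of any pair of the 10 libraries correlated at r = 0.971 to 0.995, lowest for Control 653 and EIC + S120 77. Every one of the 15780 genes listed had a count in EIC 65, whereas 234 to 654 genes were at 0 in each of the other libraries. EIC 65 enters the values given for EIC, the scaling of levels over all 20 libraries and the fit of all 20 libraries. It does not enter the main test of EIC + S120 vs. Control. Kidney markers were abundant and those of skeletal muscle were near 0. The summed proximal tubule markers reached 24421 to 34630 CPM in the Control mice and 32547 to 44370 CPM in the EIC + S120 mice. Those of skeletal muscle summed to 2.62 to 4.10 CPM in the Control mice and 3.36 to 5.04 CPM in the EIC + S120 mice. Urothelial markers summed to 0.674 to 70.4 CPM in the Control mice and 0.834 to 15.7 CPM in the EIC + S120 mice, so the EIC + S120 range lay inside the Control range. Below, a level is in CPM, a gene's count relative to the size of its library, with TMM scaling over all 20 libraries, values are listed in the order of the mouse numbers above, and an LFC is the log2 fold change with Control as the base. Adjusted p-values are Benjamini-Hochberg values from edgeR's quasi-likelihood test, and a differentially expressed (DE) gene has one under 0.05.

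Of 13519 genes tested, 527 (3.90%) were DE in EIC + S120 vs. Control. Expression of 292 genes (2.16%) was higher and that of 235 genes (1.74%) was lower. The median absolute LFC among DE genes was 0.49, and 62 exceeded an absolute LFC of 1, of which 43 were higher and 19 lower. The median LFC over all tested genes was -0.014. EIC vs. Control, tested in the same manner against the same Control mice, gave 143 DE genes of 13626 (1.05%). Because the tissue was sequenced in bulk, fewer cells of a type and less RNA per cell cannot be told apart for any gene below. Leaving out 1 library at a time gave 295 to 988 DE genes, the fewest with Control 654 left out and the most with EIC + S120 77 left out. Leaving out mouse 78, 79, 80 or 81 of EIC + S120 gave 313, 310, 306 and 339. Without both of the deepest Control libraries there were 250.

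**Figure D1:**
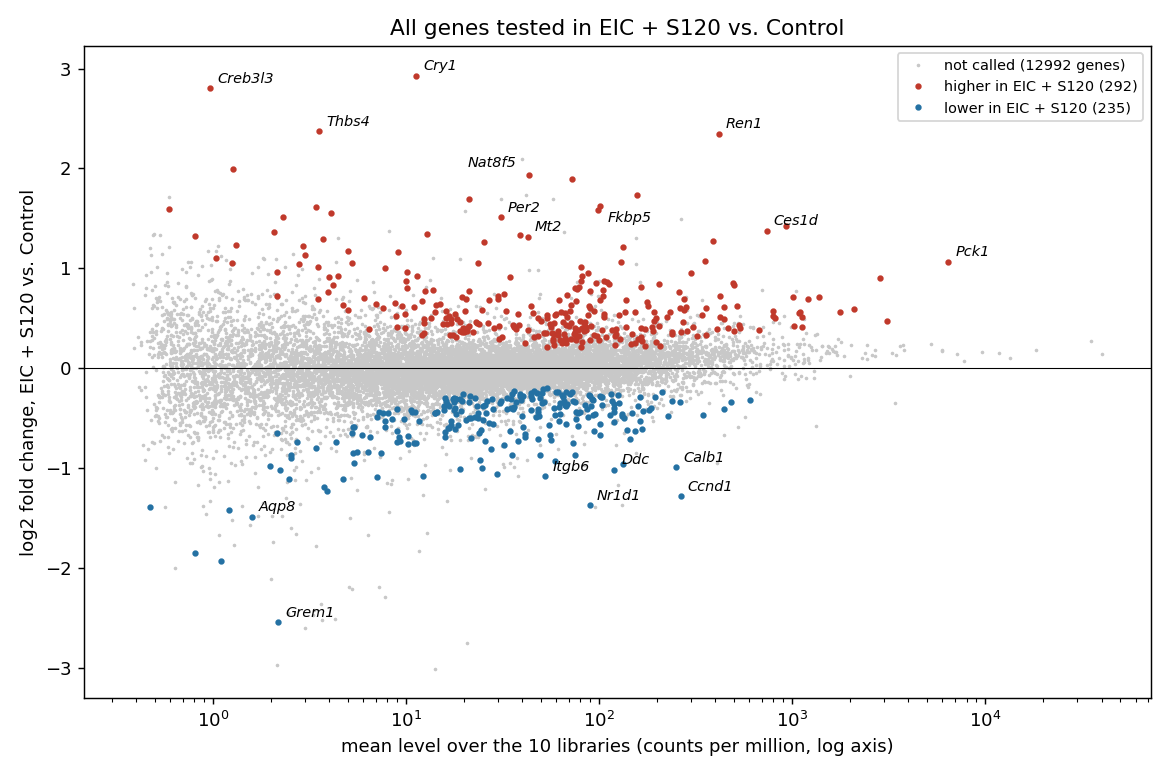
Each point is 1 of the 13519 genes tested, placed by its mean level over the 10 libraries (CPM, log axis) and its log2 fold change in EIC + S120 vs. Control. Red points are the 292 DE genes that were higher and blue points the 235 that were lower. Cry1, Creb3l3, Thbs4 and Ren1 lie highest and Grem1 lowest among the DE genes.

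Renin was higher with EIC + S120 than with either Control or EIC. Ren1, which encodes renin (chr1:133350510-133360325, GRCm38), was at 229.6, 139, 55.6, 163 and 97.3 CPM in the Control mice and at 592, 862, 756, 464 and 818 CPM in the EIC + S120 mice. The lowest EIC + S120 mouse lay above the highest Control mouse, and the group means were 137 ± 66.0 and 698 ± 166 CPM (SD, n = 5 each), LFC 2.35 (SE 0.36, adjusted p = 0.00916). In the mice given EIC alone Ren1 was at 136, 169, 204, 231 and 214 CPM, with 1 mouse barely above the highest Control mouse, LFC 0.48 (SE 0.34, adjusted p = 0.561). The difference between EIC + S120 and EIC was itself called, LFC 1.87 (SE 0.19, adjusted p = 0.00795), 1 of 2 such genes among 13485 tested (0.0148%). That call was lost without EIC + S120 81 or EIC 67 (adjusted p between 0.0528 and 0.0544). Mice on the lower dose had 440.3 to 837 CPM, LFC 2.29 vs. Control.

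Genes that accompany renin in arteriolar cells and vessel walls were higher too. Akr1b7, an aldo-keto reductase that marks renin cells and is also an adrenocortical gene, rose from 1.94, 2.41, 1.24, 2.18 and 1.47 CPM to 3.62, 4.64, 4.09, 3.22 and 5.06 CPM, without overlap, LFC 1.13 (SE 0.20, adjusted p = 0.00963). Mgp, matrix Gla protein, an inhibitor of vascular calcification, was at 21.7, 24.8, 14.1, 30.2 and 19.7 CPM in Control and at 66.1, 54.8, 52.7, 40.4 and 65.7 CPM in EIC + S120, again without overlap, LFC 1.34 (SE 0.20, adjusted p = 0.00535). With EIC alone the LFC of Akr1b7 was 0.42 (adjusted p = 0.400) and that of Mgp 0.31 (adjusted p = 0.682), and neither passed the test in EIC + S120 vs. EIC (adjusted p = 0.423 and 0.490). The summed adrenal markers, Akr1b7 among them, were at 4.10 to 5.55 CPM in the Control mice and 5.800 to 8.16 CPM in the EIC + S120 mice, and their part in the Akr1b7 difference was not tested. Of 16 tested mesangial and mural markers, 2 were higher (Ren1 and Akr1b7) and none lower, beside 2.16% of all genes higher, with a list median LFC of -0.11.

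The rest of the renin-angiotensin list and the endothelin list did not pass the test. Of 10 tested renin-angiotensin genes, Ren1 was called and 9 were not, beside 3.90% of all genes called. Ace, the angiotensin-converting enzyme, was at 241 to 315 CPM in Control and 228 to 335 CPM in EIC + S120, LFC 0.055 (SE 0.10, adjusted p = 0.816), and its sign turned without EIC + S120 79. Agtr1a, the type 1 angiotensin receptor that sparsentan blocks, had an LFC of -0.16 (adjusted p = 0.523) and Agt, angiotensinogen, one of -0.16 (0.802). None of 6 tested endothelin genes was DE, beside 3.90% of all genes, though 2 had an unadjusted p under 0.05 and DESeq2 called 2. Ednra, the endothelin receptor that the drug targets, was at 4.77, 3.24, 1.93, 4.22 and 3.56 CPM in Control and at 6.46, 5.36, 6.11, 4.98 and 5.96 CPM in EIC + S120, LFC 0.69 (SE 0.21, adjusted p = 0.0760), so that all EIC + S120 mice lay above the highest Control mouse, yet the adjusted p passed without Control 651 (adjusted p = 0.0390) or with DESeq2 (adjusted p = 0.0194) and under no other alternative run. Ednrb, the type B receptor, was at 35.0 to 43.9 and 44.6 to 61.8 CPM, LFC 0.39 (SE 0.10, adjusted p = 0.0510), and passed without Control 651 or 653 (adjusted p between 0.0394 and 0.0487), with RLE scaling (0.0485) and with DESeq2 (0.0118). Edn1, the main endothelin ligand, had an LFC of 0.23 (adjusted p = 0.705).

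**Figure D2:**
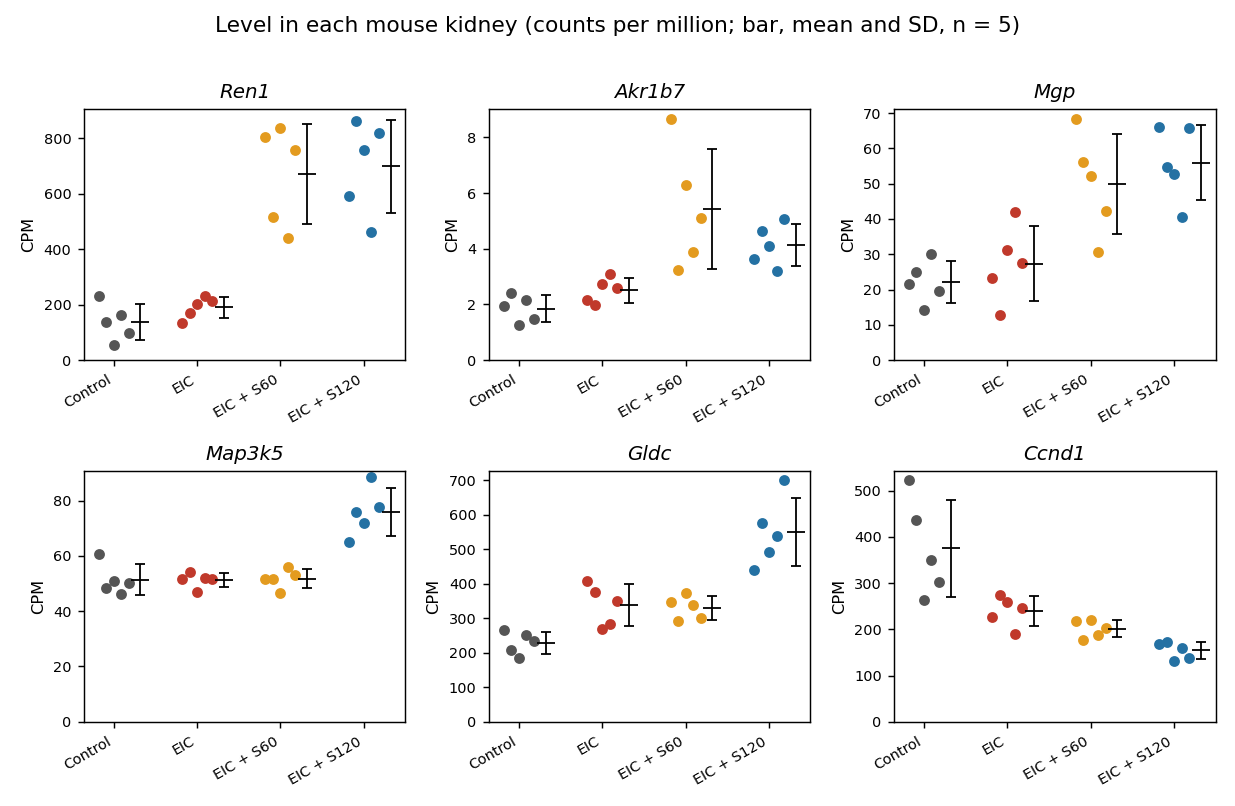
Levels (CPM) of 6 genes in each of the 20 mice, by group, with the mean and SD beside the points (n = 5). Ren1 in EIC + S120 sits between 464 and 862 CPM, above every Control and EIC mouse. Map3k5 and Gldc are higher and Ccnd1 lower in EIC + S120 than in every Control mouse.

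Genes of the circadian clock included the DE gene with the largest LFC. In each cell, ARNTL paired with CLOCK or NPAS2 activates the Per, Cry and Nr1d genes through E-boxes. PER and CRY proteins feed back on that complex, while the NR1D repressors and the ROR activators compete at genes such as Arntl, Npas2, Cry1 and Nfil3. The D-box factors DBP, TEF and HLF, opposed by NFIL3, carry the rhythm to output genes. Of 25 clock genes tested in 3 lists, 14 were DE. In the activator arm 3 of 6 were higher and 1 lower, in the repressor arm 4 of 10 were higher and 1 lower, and of 9 output genes 5 were higher. These shares compare with 3.90% of all genes. Leaving out 1 library at a time, the activator arm kept 1 to 3 calls, the repressor arm 4 to 6 and the output genes 2 to 6. In EIC vs. Control 1 activator was called higher and 3 lower, and 4 repressors and 3 output genes were called higher, beside 1.05% of all genes DE. The median LFCs of the 3 lists, in that order, were 0.12, 0.38 and 0.62 in EIC + S120 and -0.084, 0.60 and 0.63 in EIC.

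Cry1 (chr10:85131700-85185064), a repressor, was at 1.62, 2.46, 3.67, 2.99 and 2.71 CPM in Control and 17.5, 21.7, 17.6, 19.1 and 23.9 CPM in EIC + S120, the largest LFC of any DE gene, LFC 2.93 (SE 0.18, adjusted p = 6.88e-06). Every EIC + S120 mouse stood far above every Control mouse and also above every mouse with EIC alone, which had 9.10 to 13.5 CPM (LFC 2.11 vs. Control). The difference from EIC was LFC 0.80 (SE 0.12, adjusted p = 0.0562), just short of the threshold. Per2, a repressor partner of CRY proteins, rose from 16.0, 17.8, 17.6, 17.6 and 11.2 CPM to 44.9, 48.1, 42.2, 54.2 and 40.4 CPM, LFC 1.51 (SE 0.13, adjusted p = 4.72e-05), and overlapped there with EIC alone (30.2 to 46.2 CPM). Cry2 had an LFC of 0.57 (adjusted p = 0.00314) and Wee1, a kinase gene of the cell cycle under clock control, one of 0.91 (adjusted p = 0.000509), each with all EIC + S120 mice above all Control mice. Cry2 was also called with EIC alone (LFC 0.56, adjusted p = 0.00469), and its LFC between EIC + S120 and EIC was 0.0075 (adjusted p = 0.992).

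The genes of the NR1D repressors moved in opposite directions, Nr1d1 lower and Nr1d2 higher by a smaller LFC. Nr1d1, which encodes the repressor REV-ERB alpha, was at 157, 119, 113, 108 and 148 CPM in Control and 80.8, 36.9, 55.0, 43.3 and 32.4 CPM in EIC + S120, without overlap, LFC -1.38 (SE 0.24, adjusted p = 0.0147). With EIC alone it was at 76.2 to 109 CPM (LFC -0.44, adjusted p = 0.172), and the LFC between EIC + S120 and EIC was -0.94 (adjusted p = 0.486). Npas2 fell from 1.94, 1.33, 1.68, 1.84 and 2.09 CPM to 0.356, 0.834, 0.733, 1.07 and 0.298 CPM, LFC -1.42 (SE 0.31, adjusted p = 0.0253), a call lost without EIC + S120 79 or 81 or Control 654 or 655 (adjusted p between 0.0546 and 0.0620). EIC alone gave an LFC of -2.24 (adjusted p = 0.00554) for Npas2. Nfil3, the D-box repressor, was at 5.02, 5.27, 8.84, 4.28 and 4.64 CPM in Control and 7.11, 17.0, 10.3, 11.9 and 16.7 CPM in EIC + S120, with EIC + S120 77 below Control 653, LFC 1.17 (SE 0.26, adjusted p = 0.0317), and this call was lost without EIC + S120 78, 79, 80 or 81 or Control 651, 652, 654 or 655 (adjusted p between 0.0525 and 0.0852). Lonrf3, a ring-finger gene of the output list, rose in all 5 mice, LFC 0.88 (SE 0.13, adjusted p = 0.00251), against an LFC of 0.21 with EIC alone (adjusted p = 0.662). Smaller calls were Usp2 (LFC 0.62, adjusted p = 0.0320), a deubiquitinase lost without EIC + S120 78, 80 or 81 or Control 651, 653 or 654 (adjusted p between 0.0517 and 0.0839), and Rora (LFC 0.45, adjusted p = 0.0492), lost without EIC + S120 77, 78, 79, 80 or 81 or Control 652, 653, 654 or 655 (adjusted p between 0.0528 and 0.117). Nr1d2 (LFC 0.29, adjusted p = 0.0182) was lost without EIC + S120 78 or 80 or Control 654 (adjusted p between 0.0528 and 0.0624), and Tef (LFC 0.32, adjusted p = 0.0408) without EIC + S120 78, 79, 80 or 81 or Control 653, 654 or 655 (adjusted p between 0.0651 and 0.108). Without both of the deepest Control libraries, the adjusted p exceeded the threshold for Nr1d1 (0.0833), Npas2 (0.0732), Nfil3 (0.171), Usp2 (0.0569) and Nr1d2 (0.0729).

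Other clock genes gave values without a call. Dbp, the D-box activator that tracks the main clock complex, was at 132, 178, 144, 186 and 161 CPM in Control and 194, 133, 187, 134 and 149.8 CPM in EIC + S120, fully overlapping (LFC -0.0059, adjusted p = 0.986), whereas all 5 mice with EIC alone were higher at 232 to 293 CPM (LFC 0.68, adjusted p = 0.00600). The LFC between EIC + S120 and EIC was -0.69 (adjusted p = 0.0675). Arntl was at 3.32, 2.43, 3.36, 2.24 and 2.94 CPM in Control and 0.889, 5.78, 1.16, 1.45 and 1.79 CPM in EIC + S120, where mouse 78 exceeded every Control mouse and the other 4 lay below them all, LFC -0.37 (SE 0.40, adjusted p = 0.700). Without EIC + S120 78 the LFC was -1.11 (adjusted p = 0.0360). With EIC alone it was -2.09 (adjusted p = 0.000924). Clock had an LFC of -0.22 (adjusted p = 0.115) and Per1 one of 0.56 (0.401).

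**Figure D3:**
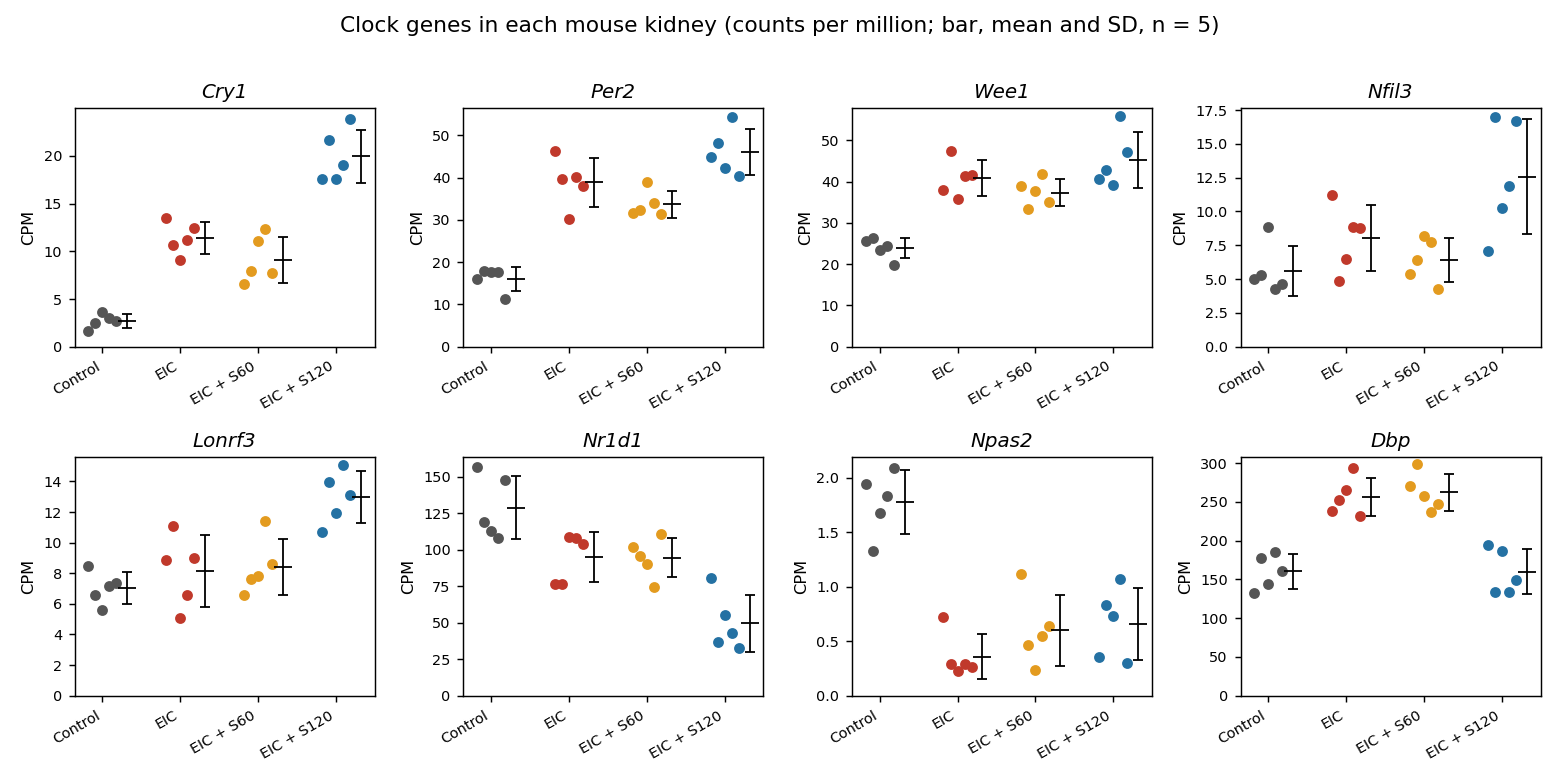
Levels (CPM) of 8 clock genes in each of the 20 mice, by group, with the mean and SD beside the points (n = 5). Cry1 in EIC + S120 lies above every mouse of the other groups, Nr1d1 and Npas2 are lower than in Control, and Dbp in EIC + S120 overlaps Control and lies below every EIC mouse.

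The RefSeq promoters (GRCm38.p6, 250 bases before to 50 after each start) were read for the E-box CACGTG and for the D-box TTATGTAA or TTACGTAA, on both strands (TTACATAA is TTATGTAA read on the other strand). An entry was found for 21 of the 25 clock genes tested, and 7 of them held an E-box and 2 a D-box before the start. The E-box stood in 13.1% of 290 promoters of the higher genes (95% Wilson interval 9.7% to 17.5%, for counting error only), in 10.9% of 258 promoters of the lower genes and in 9.66% of all 13576 promoters of tested genes. The D-box stood in 3.1% of the promoters of higher genes (interval 1.64% to 5.79%), in 0 of 258 of the lower genes and in 0.751% of all. Several promoters can belong to 1 gene, and the 9 D-box promoters of higher genes belong to 7 genes, among them G6pc, Ces1g, Miox and Prnp. A match is a description of the letters and not a bound site. The stretches below, 60 bases each before the start and written 5′ to 3′ on the strand of the gene, show the motif in capitals for 3 DE clock genes with an E-box and for those 4 genes with a D-box, whose values follow. Up to 25 of the bases, in Miox, lie in an exon that GENCODE starts before the RefSeq start.
Cry1, chr10:85185082-85185141, minus strand: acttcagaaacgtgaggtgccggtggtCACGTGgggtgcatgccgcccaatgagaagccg
Lonrf3, chrX:36328310-36328369, plus strand: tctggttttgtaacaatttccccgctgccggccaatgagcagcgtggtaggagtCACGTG
Tef, chr15:81811249-81811308, plus strand: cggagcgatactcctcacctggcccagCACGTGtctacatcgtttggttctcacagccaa
G6pc, chr11:101367502-101367561, plus strand: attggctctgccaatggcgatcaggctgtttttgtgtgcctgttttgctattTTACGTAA
Ces1g, chr8:93337400-93337459, minus strand: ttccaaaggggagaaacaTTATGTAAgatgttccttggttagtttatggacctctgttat
Miox, chr15:89334363-89334422, plus strand: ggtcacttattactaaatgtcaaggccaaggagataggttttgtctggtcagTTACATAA
Prnp, chr2:131909678-131909737, plus strand: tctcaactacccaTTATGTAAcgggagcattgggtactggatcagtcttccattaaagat

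Several genes that glucocorticoids induce were higher under EIC + S120. Glucocorticoids bind their nuclear receptor, which switches on inhibitors of inflammation, metallothioneins and enzymes of glucose production. Of 14 tested members 4 were DE, all higher, beside 2.16% of all genes, and DESeq2 called 9. The list's median LFC was 1.19 beside a median of -0.014 over all genes. With 1 library left out, 3 to 5 members were called. In EIC vs. Control the list's median LFC was 0.65, with 1 member called higher. Fkbp5, a chaperone of the receptor, was at 58.7, 64.6, 47.7, 40.7 and 35.7 CPM in Control and 119, 125, 97.5, 212 and 214 CPM in EIC + S120, without overlap, LFC 1.62 (SE 0.26, adjusted p = 0.0110). In EIC alone it was at 58.8 to 102 CPM (LFC 0.84, adjusted p = 0.0700), and in EIC + S60 at 37.5 to 80.8 CPM (LFC 0.16, adjusted p = 0.811), so the gene was not called in either. Metallothionein genes Mt1 and Mt2, which bind zinc and copper, were at 79.0 to 90.5 and 19.5 to 31.2 CPM in Control and at 154 to 206 and 55.7 to 69.6 CPM in EIC + S120, with LFC 1.06 (SE 0.077, adjusted p = 1.59e-05) and LFC 1.32 (SE 0.13, adjusted p = 0.000314). Mt1 was also called in EIC (LFC 0.90, adjusted p = 0.00229) and in EIC + S60 (LFC 0.85, adjusted p = 0.000960), and Mt2 in EIC + S60 (LFC 0.97, adjusted p = 0.0145) but not in EIC (LFC 0.96, adjusted p = 0.0649). Tsc22d3, the leucine zipper protein GILZ, was called at LFC 1.58 (adjusted p = 0.0416) but lost without EIC + S120 78, 80 or 81 or Control 651, 654 or 655 (adjusted p between 0.0618 and 0.102) and without both of the deepest Control libraries (adjusted p = 0.112). Sgk1, the aldosterone- and glucocorticoid-induced kinase, had a large LFC of 1.49 that did not pass (adjusted p = 0.159). EIC + S120 mice ranged from 174 to 689 CPM and Control mice from 56.9 to 262 CPM. Pdk4, Angptl4 and Zbtb16 also did not pass (LFC 1.73, 1.69 and 1.37, adjusted p = 0.108, 0.0961 and 0.105). DESeq2 called all 4 of these genes. Of the 14 members, 12 had a positive LFC and 2 a negative one. Klf9 and Klf15 were nearly level, with LFCs of 0.083 and 0.066 (adjusted p = 0.717 and 0.788). Cdkn1a and Lcn2 had LFCs of -0.0038 and -0.42 (adjusted p = 0.998 and 0.458).

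Genes of fatty acid oxidation and of glucose production were higher in the same kidneys. The proximal tubule burns fatty acids, imported into mitochondria by the carnitine shuttle, and makes glucose in fasting. Of 31 tested fatty acid oxidation genes 8, Creb3l3 among them, were higher and none lower, beside 2.16% of all genes higher. The list median LFC was 0.44, 5 to 9 were DE when 1 library was left out, and DESeq2 called 15. In EIC vs. Control the list median was 0.36 over 30 tested members, with 2 called higher. Slc25a20, the carnitine-acylcarnitine carrier, was at 57.7, 52.9, 56.7, 45.2 and 55.6 CPM in Control and 94.3, 105, 103, 125 and 115 CPM in EIC + S120, LFC 1.02 (SE 0.086, adjusted p = 6.04e-05), with no overlap. Cpt2, the inner carnitine palmitoyltransferase, rose with an LFC of 0.56 (adjusted p = 0.00552), and Slc22a5, the carnitine importer, with one of 0.60 (adjusted p = 0.00497). Acot3, a peroxisomal thioesterase, had an LFC of 0.86 (adjusted p = 0.00990). With EIC alone Cpt2 was called (LFC 0.42, adjusted p = 0.0497) and Acot3 was not (LFC 0.55, adjusted p = 0.130). Creb3l3, a membrane-bound transcription factor of the fasting response, was nearly silent in Control at 0.216, 0.151, 0.249, 0.204 and 0.464 CPM and at 0.889, 2.32, 1.71, 2.27 and 1.19 CPM in EIC + S120, LFC 2.80 (SE 0.32, adjusted p = 0.00161). It passed the count filter only through the EIC + S120 libraries (3 to 8 counts per Control library, 15 to 39 in EIC + S120), which makes a difference in that direction more likely.

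Pck1, the cytosolic enzyme that commits carbon to glucose synthesis, was at 4725, 3767, 3156, 4053 and 5092 CPM in Control and 5621, 9752, 9035, 9140.3 and 9967 CPM in EIC + S120, LFC 1.07 (SE 0.17, adjusted p = 0.00485), and mouse 77 was the lowest of its group yet above all Control mice. G6pc, the glucose-6-phosphatase that releases glucose and whose D-box is shown above, was at 376 to 675 CPM and 747 to 1714 CPM, LFC 1.42 (SE 0.23, adjusted p = 0.00685). These were the 2 DE genes among 16 tested gluconeogenesis and insulin genes, beside 3.90% of all genes, and DESeq2 called 4. With EIC alone the LFC was 0.58 for Pck1 (adjusted p = 0.0657) and 1.02 for G6pc (adjusted p = 0.0666).

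Genes for conjugating and hydrolyzing enzymes were higher as well. Of 37 tested conjugation and antioxidant genes 8 were higher and none lower, beside 2.16% of all genes higher (list median LFC 0.34). DESeq2 called 17, and 6 to 17 were called with 1 library left out, 17 of them without EIC + S120 77. Nat8 and Nat8f5, N-acetyltransferases of the kidney tubule, were at 62.8 to 93.4 and 12.6 to 23.3 CPM in Control and at 119.95 to 219 and 40.2 to 85.9 CPM in EIC + S120, LFC 1.22 (SE 0.16, adjusted p = 0.00200) and LFC 1.94 (SE 0.22, adjusted p = 0.00141). Both genes lie side by side on chromosome 6 and resemble each other, so reads shared between them could shift counts from one to the other. Ces1d, a carboxylesterase, was at 479.9, 414, 347, 372 and 439 CPM in Control and 729, 1269.8, 983, 1267 and 1079 CPM in EIC + S120, LFC 1.38 (SE 0.15, adjusted p = 0.000326), and its relatives Ces2c and Ces1g had LFCs of 0.77 (adjusted p = 0.0135) and 1.61 (adjusted p = 0.0197). The Ces1g call was lost without EIC + S120 78, 80 or 81 (adjusted p between 0.0508 and 0.0537). Gstp1, a glutathione transferase, was higher by an LFC of 0.37 (adjusted p = 0.0134). Miox, the inositol oxygenase found almost wholly in proximal tubule, was at 1227 to 1509 and 1738 to 2414 CPM, LFC 0.56 (SE 0.10, adjusted p = 0.00876), and Slc27a2 (LFC 0.47, adjusted p = 0.0159), a fatty acid transporter of the same cells, was lost without EIC + S120 80 or Control 654 (adjusted p between 0.0507 and 0.0530). Of 22 proximal tubule markers 4 were higher and none lower, beside the same 2.16%. Their summed level, Miox included, was 24421 to 34630 CPM in the Control mice and 32547 to 44370 CPM in the EIC + S120 mice, and the part of that shift in the metabolic differences was not tested. Without both of the deepest Control libraries the adjusted p exceeded the threshold for Ces2c (0.0633), Ces1g (0.0883) and Gstp1 (0.0598). Nat8, Nat8f5, Ces1d and Ces1g were also called in EIC vs. Control, LFC 0.83, 1.36, 0.86 and 1.94 (adjusted p = 0.00690, 0.00126, 0.0165 and 0.0287). Ces2c, Gstp1 and Miox were not (LFC 0.31, 0.11 and 0.18, adjusted p = 0.410, 0.552 and 0.460). In EIC + S120 vs. EIC none of these genes passed (adjusted p between 0.493 for Miox and 0.842 for Ces1g).

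**Figure D4:**
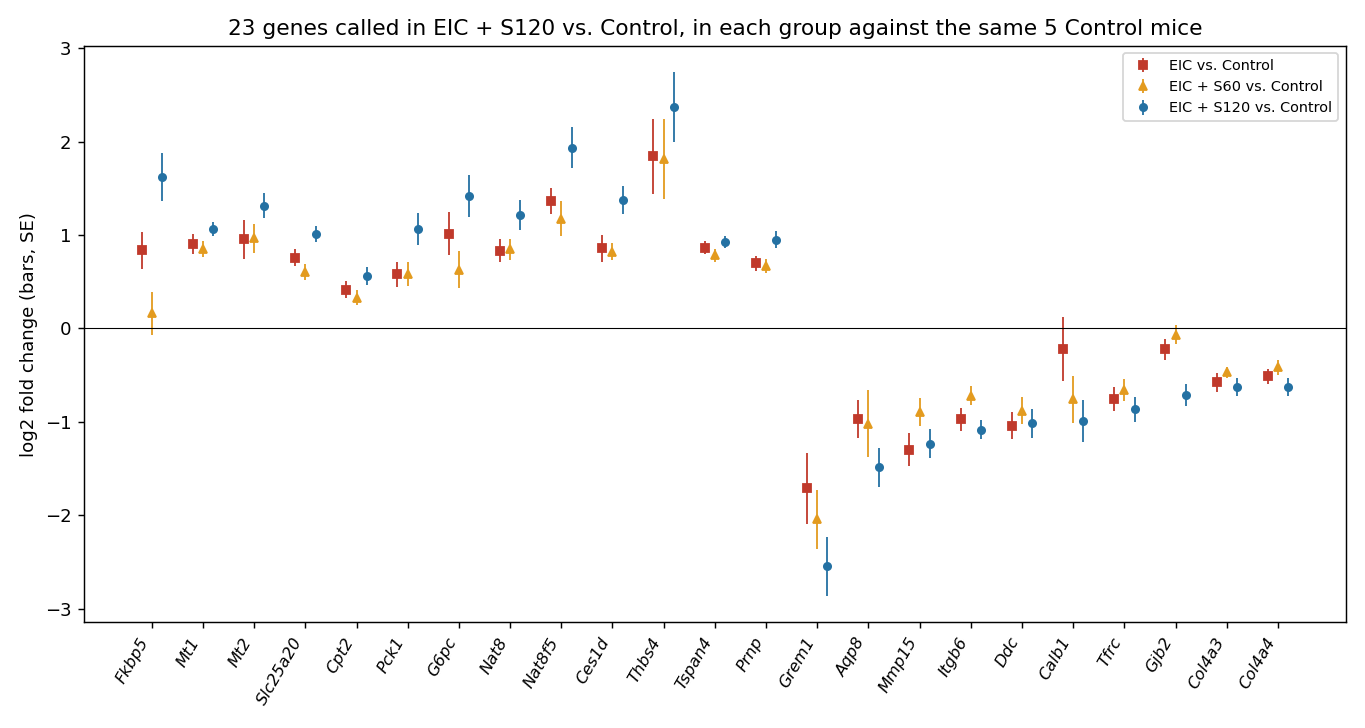
Log2 fold changes with their SE (bars) for 23 genes DE in EIC + S120 vs. Control, in EIC (squares), EIC + S60 (triangles) and EIC + S120 (circles), each against the same 5 Control mice. Because Control is shared, the 3 sets of points are not independent. Fkbp5 lies at 0.16 in EIC + S60 and Calb1 at -0.22 in EIC, against 1.62 and -0.99 in EIC + S120, while Mmp15 lies at -1.30 in EIC and -1.23 in EIC + S120.

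Cyclin D1 was lower in every EIC + S120 mouse. Ccnd1, which drives entry into the cell cycle, was at 523, 435, 263, 350.0 and 303 CPM in Control and 169, 173, 132, 159 and 138 CPM in EIC + S120, without overlap, LFC -1.28 (SE 0.17, adjusted p = 0.00255). All EIC + S120 mice were also below all mice with EIC alone, which had 227, 275, 259.9, 189 and 245 CPM, LFC -0.65 (SE 0.18, adjusted p = 0.113), and the difference between those groups narrowly missed the threshold, LFC -0.64 (SE 0.11, adjusted p = 0.0675). The gene was the only DE member among 17 tested cell cycle genes, beside 3.90% of all genes. The median LFC of that list was -0.20.

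Among regulators of growth factors and matrix, some genes were lower and others higher. Grem1, whose secreted product binds and blocks bone morphogenetic proteins, had the most negative LFC of the DE genes and was at 4.48, 5.40, 2.12, 4.28 and 2.24 CPM in Control and 0.711, 1.07, 0.428, 0.378 and 0.596 CPM in EIC + S120, LFC -2.55 (SE 0.32, adjusted p = 0.00167). It was also called lower with EIC alone, LFC -1.71 (adjusted p = 0.0498), and in EIC + S60, LFC -2.04 (adjusted p = 0.00898). Id2 and Id3 of the same list, targets of bone morphogenetic proteins, were higher, with LFCs of 0.61 (adjusted p = 0.00834) and 0.80 (adjusted p = 0.0301). Bmp4 was higher too, LFC 0.39 (adjusted p = 0.0424). Of 22 tested genes in the list 3 were higher and 1 lower, beside 2.16% and 1.74% of all genes. The Id3 call was lost without EIC + S120 78 or 79 or Control 652 or 654 (adjusted p between 0.0624 and 0.0721), and without both of the deepest Control libraries the adjusted p was 0.0501 for Id2 and 0.0731 for Id3. Itgb6, the epithelial integrin subunit that activates transforming growth factor beta, was at 81.0, 74.3, 58.4, 68.4 and 75.4 CPM and 39.5, 28.7, 34.3, 37.1 and 29.5 CPM, LFC -1.08 (SE 0.11, adjusted p = 0.000171). Mmp15, a membrane-type metalloproteinase, was lower, at 4.54 to 6.97 CPM in Control and 1.96 to 2.62 CPM in EIC + S120, LFC -1.23 (SE 0.15, adjusted p = 0.00129). EIC alone gave LFCs of -0.97 and -1.30 for these genes. Thbs4, a thrombospondin of vessel walls and matrix, went the other way, from 0.917, 1.36, 0.871, 2.24 and 0.309 CPM to 4.80, 5.30, 7.15, 7.25 and 5.30 CPM, LFC 2.37 (SE 0.37, adjusted p = 0.00255).

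Collagen IV chains of the glomerular basement membrane were lower. Col4a3 and Col4a4, neighbors on chromosome 1 that share a promoter region and are transcribed in opposite directions, were at 169 to 205 and 152 to 187 CPM in Control and at 107 to 153 and 97.7 to 136 CPM in EIC + S120, LFC -0.63 (SE 0.10, adjusted p = 0.00486) and LFC -0.62 (SE 0.10, adjusted p = 0.00485). EIC alone gave -0.58 and -0.51. They were the 2 DE genes among 15 podocyte markers, beside 3.90% of all genes. The summed podocyte level was 1627 to 2072 CPM in the Control mice and 1436 to 1589 CPM in the EIC + S120 mice, lower in all 5 EIC + S120 mice. That sum includes Col4a3 and Col4a4 and so holds their decrease. The part of the other podocyte markers in the collagen difference was not tested.

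Transcripts of dopamine synthesis and of iron and sterol handling were lower as well. Ddc, the decarboxylase with which the proximal tubule makes dopamine, was at 212, 151, 119, 143 and 179 CPM in Control and 60.69, 80.7, 80.8, 81.0 and 94.6 CPM in EIC + S120, LFC -1.02 (SE 0.15, adjusted p = 0.00493). EIC alone gave -1.04. Tfrc, the transferrin receptor for iron uptake, was lower, at 57.5 to 73.4 CPM in Control and 25.8 to 43.6 CPM in EIC + S120, LFC -0.87 (SE 0.13, adjusted p = 0.00493). In sterol and lipid synthesis 3 of 29 genes were lower and none higher, beside 1.74% of all genes lower, with a median LFC of -0.20. Srebf1, the transcription factor of lipid synthesis, was at 51.8 to 101 CPM and 35.6 to 45.8 CPM, LFC -0.93 (SE 0.16, adjusted p = 0.00990), and Stard4 (LFC -0.37, adjusted p = 0.0119), a sterol carrier, was lower by less. Without both of the deepest Control libraries the adjusted p rose to 0.0507 for Srebf1 and to 0.0578 for Stard4.

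Some markers of distal segments were lower. Of 18 loop and distal tubule markers 2 were lower, and of 13 principal cell markers 3 were lower, beside 1.74% of all genes. In 1 fit of all 20 libraries 1 of each list was called. The lists had median LFCs of -0.18 and -0.26 beside 0.012 and -0.024 in EIC vs. Control. Control 653 stood apart for some of these markers, with Aqp2, the vasopressin-regulated water channel, at 1246 CPM against 277 to 475 CPM in the other Control mice, and Elf5, a transcription factor, at 35.0 CPM against 0.917 to 2.99 CPM. It was also high for the adipocyte gene Fabp4, at 228 CPM against 29.2 to 50.9 CPM. Without Control 653 the medians were -0.15 and -0.15, with 1 and 2 members called lower. Kcnj10, a basolateral potassium channel, was at 79.5, 95.04, 101, 95.6 and 85.9 CPM in Control and 66.7, 68.6, 63.3, 71.4 and 67.7 CPM in EIC + S120, without overlap, LFC -0.44 (SE 0.070, adjusted p = 0.00493). Calb1, the calcium-binding protein of the distal convoluted tubule, fell from 210.1, 379, 459, 379 and 239 CPM to 117, 176, 172, 175 and 199 CPM, LFC -0.99 (SE 0.23, adjusted p = 0.0379), against -0.22 with EIC alone, and its call was lost without EIC + S120 78, 79, 80 or 81 or Control 652, 653 or 654 (adjusted p between 0.0617 and 0.0896) and in 1 fit of all 20 libraries (adjusted p = 0.0546). Aqp3, the basolateral water channel of collecting duct, was at 144 to 187 and 109.5 to 140.1 CPM, LFC -0.45 (SE 0.093, adjusted p = 0.0180), with -0.036 in EIC and -0.037 in EIC + S60, a call lost without EIC + S120 78 or Control 654 (adjusted p between 0.0537 and 0.0557) and without both of the deepest Control libraries (adjusted p = 0.0751). None of these 3 passed the test in EIC + S120 vs. EIC (adjusted p = 0.655, 0.642 and 0.241). None of 13 intercalated cell markers was called, by edgeR or DESeq2, beside 3.90% of all genes by edgeR, and 1 had an unadjusted p under 0.05.

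Gjb2 and Slc2a5 were among the other lower genes. Gjb2, connexin 26 of gap junctions, was at 213, 167, 135, 184 and 199 CPM in Control and 109, 101, 130.4, 113 and 96.1 CPM in EIC + S120, LFC -0.71 (SE 0.12, adjusted p = 0.00670), and Slc2a5, the fructose transporter, at 115 to 192 and 90.0 to 110.0 CPM, LFC -0.54 (SE 0.11, adjusted p = 0.0251). With EIC alone their LFCs were -0.22 and -0.10, and the adjusted p in EIC + S120 vs. EIC was 0.123 and 0.0675. The Slc2a5 call against Control was lost without EIC + S120 78, 79 or 81 or Control 654 (adjusted p between 0.0516 and 0.0711). Aqp8, a water channel, had LFC -1.49 (SE 0.20, adjusted p = 0.00246). Eddm3b, a secreted ribonuclease-like gene, was at 8.52, 6.32, 6.04, 5.92 and 5.49 CPM in Control and 3.20, 3.27, 2.32, 3.40 and 2.80 CPM in EIC + S120, LFC -1.11 (SE 0.15, adjusted p = 0.00230), while EIC alone left it at 5.31 to 7.03 CPM, and the difference between EIC + S120 and EIC was LFC -0.998 (SE 0.14, adjusted p = 0.0553). Small SEs accompanied the decreases in Jpt2, Adap1, Slc39a10 and Fhod3, whose LFCs ran -0.997, -0.92, -0.77 and -0.72 with SEs of 0.090, 0.086, 0.072 and 0.066. Slc39a10 imports zinc. All 5 EIC + S120 mice were below all 5 Control mice for each of the 4, and EIC alone gave -0.90, -0.66, -0.67 and -0.51.

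Among the higher genes with the smallest p were several without a list. Nkain1, a partner of the sodium pump, was at 7.63, 11.4, 8.46, 12.8 and 9.98 CPM in Control and 33.7, 31.1, 33.7, 32.3 and 31.2 CPM in EIC + S120, LFC 1.69 (SE 0.12, adjusted p = 1.45e-05). Tspan4, a tetraspanin, was at 51.7 to 60.732 CPM in Control and 98.8 to 120.6 CPM in EIC + S120, LFC 0.93 (SE 0.065, adjusted p = 1.45e-05), with nearly the same LFC in EIC (0.86). Prnp, the prion protein gene, had LFC 0.95 (SE 0.089, adjusted p = 0.000131), and Nampt, the enzyme that limits NAD salvage, LFC 0.60 (SE 0.061, adjusted p = 0.000243). Nkain1 and Nampt were also called in EIC vs. Control, LFC 1.43 and 0.53 (adjusted p = 0.00391 and 0.00284). Gldc, the decarboxylase of the glycine cleavage system, was at 265, 209, 183, 250.3 and 233 CPM in Control and 439, 576, 493, 539.5 and 702 CPM in EIC + S120, LFC 1.27 (SE 0.13, adjusted p = 0.000263), and all EIC + S120 mice exceeded all EIC mice (268 to 409 CPM), with LFC 0.70 (SE 0.14, adjusted p = 0.217). Gda, guanine deaminase, and Tmem252 had LFCs of 1.34 and 1.73 (adjusted p = 0.00151 and 0.00129). Gda was not called with EIC alone (LFC 0.88, adjusted p = 0.107). Of the 26 heat shock and chaperone genes 3 were higher, beside 2.16% of all genes, and DESeq2 called 8. They were led by Hspa8, the constitutive cytosolic chaperone, at 781 to 1059 and 1227 to 1803 CPM, LFC 0.69 (SE 0.12, adjusted p = 0.00669), and Dnajb9 of the endoplasmic reticulum, LFC 0.41 (adjusted p = 0.00674). Neither Hspa8 nor Dnajb9 was called with EIC alone (LFC 0.47 and 0.20, adjusted p = 0.0648 and 0.330). Cxcl12, a chemokine of stromal and endothelial cells, was higher by LFC 0.51 (SE 0.087, adjusted p = 0.00759), and Vim, the intermediate filament of mesenchymal and injured tubular cells, by LFC 0.47 (SE 0.083, adjusted p = 0.00752). The Vim call was lost in 1 fit of all 20 libraries (adjusted p = 0.0937). Cxcl12 and Vim were each the sole DE member of a list, 1 of 16 cytokine genes and 1 of 16 injury markers, beside 3.90% of all genes.

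Map3k5 was the other gene called between EIC + S120 and EIC. It encodes ASK1, a kinase that relays oxidative stress to p38 and JNK. Its level was 60.9, 48.5, 50.8, 46.4 and 50.1 CPM in Control, 51.7, 54.2, 47.1, 51.9 and 51.7 CPM in EIC and 65.0, 75.9, 72.1, 88.7 and 77.8 CPM in EIC + S120. No EIC + S120 mouse overlapped either group, LFC 0.56 (SE 0.089, adjusted p = 0.00493) vs. Control and LFC 0.56 (SE 0.076, adjusted p = 0.0335) vs. EIC. The lower dose left the gene at 46.5 to 56.0 CPM, LFC 0.0088 vs. Control, and EIC alone gave 0.0020. The call against EIC was lost without EIC + S120 78, 79, 80 or 81 or EIC 65, 67, 68 or 69 (adjusted p between 0.0593 and 0.177), whereas that against Control held with every library left out. Ypel2, of unknown role, had a like order, with LFC 0.80 (SE 0.16, adjusted p = 0.0181) vs. Control and -0.0064 in EIC, but did not pass in EIC + S120 vs. EIC (adjusted p = 0.133). Without both of the deepest Control libraries its adjusted p vs. Control was 0.104. At an unadjusted p under 0.05, 993 of 13485 genes differed between EIC + S120 and EIC.

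No gene of the interferon, histocompatibility, macrophage or complement lists passed the test against Control. None of 20 interferon-gamma response genes, 26 type I interferon genes, 16 class I and 8 class II histocompatibility genes, 16 macrophage genes or 17 complement genes was DE. Over all genes 3.90% were DE, and at that share a list of this size would hold few calls or none. At an unadjusted p under 0.05 there were, in that order, 0, 4, 3, 1, 8 and 6, beside 2552 of all 13519 genes. DESeq2 called 0, 0, 2, 1, 3 and 2, beside 1008 of all genes. The median LFCs of these lists were 0.18, 0.16, 0.11, 0.30, 0.34 and 0.30, above the all-gene median. In EIC vs. Control the same lists had medians of 1.15, 0.59, 0.37, 0.84, 1.12 and 0.12. Members called there were also few, 2, 0, 0, 0, 1 and 3, all higher, where 1.05% of all genes were DE. C1qa, a chain of the first complement component made by macrophages, was at 5.85, 7.68, 6.10, 9.93 and 7.20 CPM in Control and 11.1, 11.4, 13.2, 8.26 and 11.8 CPM in EIC + S120, LFC 0.61 (SE 0.16, adjusted p = 0.0524), with EIC + S120 80 inside the Control range, and passed without EIC + S120 80 or Control 654 (adjusted p between 0.0277 and 0.0357), with RLE scaling (0.0497), a 50-count filter (0.0470), DESeq2 (0.00775) and limma-voom (0.0375). Adgre1, the macrophage marker F4/80, was at 1.49 to 2.31 and 1.64 to 5.12 CPM, LFC 0.94 (SE 0.26, adjusted p = 0.0649), and passed without EIC + S120 80 (adjusted p = 0.0126) and with DESeq2 (0.0136). Tgtp2, an interferon-induced GTPase, was at 1.48 to 2.30 CPM in Control, 1.77 to 5.99 CPM in EIC + S120 and 3.43 to 14.8 CPM in EIC, with an LFC of 0.68 in EIC + S120 (adjusted p = 0.271) and of 2.03 in EIC (adjusted p = 0.0259). Lyz2, lysozyme of myeloid cells, had LFCs of 0.24 and 1.89, neither called. The LFC between EIC + S120 and EIC was -1.35 for Tgtp2 and -1.65 for Lyz2, and neither passed (adjusted p = 0.568 and 0.523).

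Of 18 Fc receptor and integrin genes 1 was higher and 1 lower, beside 3.90% of all genes DE. Fcgr2b, the inhibitory Fc gamma receptor, was at 31.8, 36.2, 28.5, 32.8 and 30.02 CPM in Control and 15.8, 22.8, 25.3, 23.8 and 21.8 CPM in EIC + S120, without overlap, LFC -0.55 (SE 0.12, adjusted p = 0.0172), with an LFC of -0.37 in EIC (adjusted p = 0.121). Its adjusted p was 0.10 without both of the deepest Control libraries. Selplg, the P-selectin ligand of leukocytes, was at low levels, 0.498 to 1.11 CPM in Control and 1.45 to 1.96 CPM in EIC + S120, LFC 1.05 (SE 0.22, adjusted p = 0.0253), a call lost without EIC + S120 78 or 79 or Control 652 or 654 (adjusted p between 0.0600 and 0.0706). Fcgrt, the neonatal Fc receptor that recycles IgG, was at 145 to 286 and 281 to 378 CPM, LFC 0.62 (SE 0.16, adjusted p = 0.0509), and passed without EIC + S120 77 or Control 653 or 655 (adjusted p between 0.0138 and 0.0433). It also passed under 7 other alternatives, with adjusted p between 0.00253 (DESeq2) and 0.0493 (RLE scaling).

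Immediate early genes, transcribed within minutes of a stimulus, gave no call in EIC + S120 vs. Control. None of 18 tested was DE, by edgeR or DESeq2, beside 3.90% of all genes by edgeR, and 2 had an unadjusted p under 0.05. In EIC vs. Control 4 were lower, where 1.05% of all genes were DE. Egr1 was at 64.7, 39.6, 22.9, 52.5 and 118 CPM in Control, 42.1, 97.7, 39.5, 33.2 and 59.97 CPM in EIC + S120 and 9.80, 7.96, 3.41, 4.68 and 7.99 CPM in EIC. The Control and EIC + S120 values overlapped, LFC -0.12 (SE 0.46, adjusted p = 0.917), and each EIC mouse was below all of them, LFC -3.11 (SE 0.44, adjusted p = 0.0203). The difference between EIC + S120 and EIC was LFC 2.99 (SE 0.36, adjusted p = 0.0644). Fos had LFCs of -0.59 in EIC + S120 and -3.10 in EIC, and Dusp1, a phosphatase gene induced with them and by glucocorticoids, 0.86 and -0.56.

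**Figure D5:**
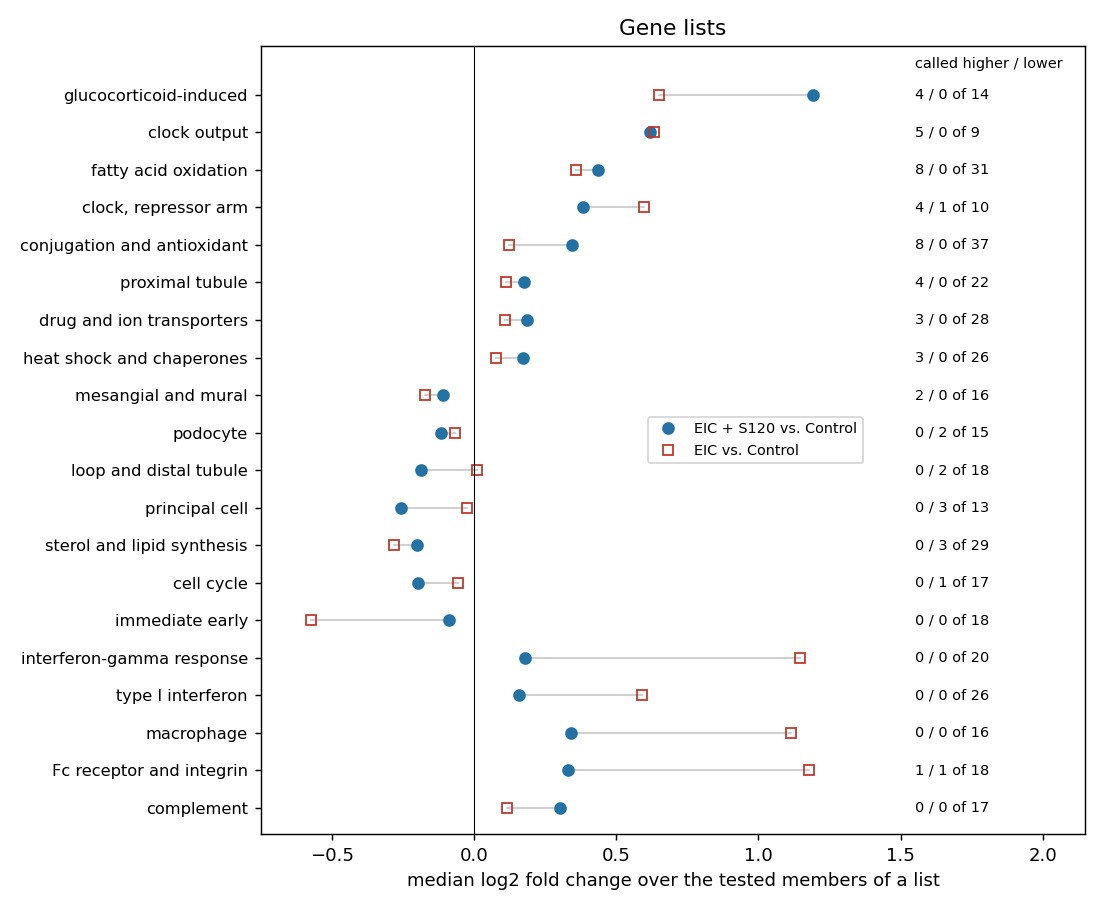
Median log2 fold change over the tested members of 20 gene lists in EIC + S120 vs. Control (filled circles) and EIC vs. Control (open squares), with the number of members called higher and lower in EIC + S120 at the right. The glucocorticoid-induced list has the highest EIC + S120 median (1.19), and the interferon, macrophage and Fc receptor lists have few or no calls there.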

How the data were processed

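Kidney RNA of 20 mice in 4 groups of 5 was sequenced, and the comparison uses the 5 EIC + S120 and 5 Control libraries, with the other groups set beside them. The deposited values are counts of reads per gene. Per the labels and the study's methods, the authors used Trimmomatic 0.36 for trimming, STAR 2.5.2b for alignment (GRCm38) and featureCounts (Subread 1.5.2) for counting. The sources used here give neither the gene annotation nor the strand setting, so reads of a gene and of an antisense partner may not be separable.

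Of 15780 names, 15711 matched a symbol, and 21 that a spreadsheet had turned into dates were not named. A gene entered a comparison when 5 or more of its 10 libraries held 10 or more counts. Counts were scaled with TMM and tested with edgeR 4.0.16 (robust quasi-likelihood, R 4.3.3), with Benjamini-Hochberg adjustment at 0.05 over all genes tested. EIC vs. Control and EIC + S120 vs. EIC had their own fits. SEs came from limma 3.58.1 (log2 CPM, prior count 2). The procedure was tested on simulated data. Alternatives were RLE and upper-quartile scaling, other count filters, DESeq2 1.42.0, limma-voom, no robust estimation, 1 fit of all 20 libraries, and libraries left out. The labels name no litter, cage or batch. The p-values set differences against the spread between mice within a group. A cage or handling difference that coincides with group cannot be told apart from the treatment. According to the paper, cages and treatment variations were not controlled for as confounders.

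The members, gene lists and tests were chosen with earlier results of these data known. The 50 lists are described by counts and medians, with no set test. Genes were named if they had 1 of the 20 largest LFCs in either direction among DE genes averaging at least 1 CPM, 1 of the 15 smallest p-values, or 1 of the 20 smallest p-values in EIC + S120 vs. EIC at that level, if they were among the 5 members of a list with the smallest p or in a list of at most 14, or if the study's text names them. Not all genes that qualified are described, and some are not reported here. Promoters are from RefSeq and gene coordinates from GENCODE, both on GRCm38.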

Additional observations from a re-analysis of the deposited data

Results flagged for a closer look

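Ren1 and Map3k5 differed between the effect of EIC + S120 and that of EIC against the same Control mice, by edgeR's test of EIC + S120 vs. EIC (LFC 1.87 for Ren1 and 0.557 for Map3k5). The Ren1 call remained in 8 of 10 fits that left out 1 library (LFC 1.77 to 1.98) and the Map3k5 call in 2 of 10 (LFC 0.50 to 0.61).

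In 190 groups of 5 mice, taken over the genes described, 11 held 1 mouse whose gap to the nearest other value exceeded Dixon's 95% critical value, and chance gives about 1 in 20. Arntl in mouse 78 was at 5.78 CPM against 0.889 to 1.79 CPM in the others, Slc39a10 in mouse 79 at 26.5 CPM against 22.3 to 23.5 CPM, and Tgtp2 in the same mouse at 5.99 CPM against 1.77 to 2.5 CPM. Mouse 77 was low for Acot3, at 111 CPM against 144 to 153 CPM, and for Pck1, at 5621 CPM against 9035 to 9967 CPM.

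Among Control mice, 655 was low for Edn1, at 0.619 CPM against 1.36 to 1.61 CPM, and for Per2, at 11.2 CPM against 16.0 to 17.8 CPM. Mouse 653 was high for Nfil3, at 8.84 CPM against 4.28 to 5.27 CPM, and low for Ces1g, at 0.498 CPM against 1.81 to 2.11 CPM. Mouse 651 was high for Slc2a5, at 192 CPM against 115 to 135 CPM, and for Eddm3b, at 8.52 CPM against 5.49 to 6.32 CPM.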

How the results depend on the processing

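The 527 DE genes of EIC + S120 vs. Control became 1008 with DESeq2, 250 without both of the deepest Control libraries (64.8% of them higher, against 55.4%) and 1124 without Control 653 and EIC + S120 77, an alternative chosen after seeing the data. Leaving out 1 library gave 295 to 988. The 6 other settings, among them RLE scaling (533) and no filter on low counts (483), and 1 fit of all 20 libraries (777) stayed within 1.5 times. The 143 DE genes of EIC vs. Control became 505 with DESeq2, 416 in 1 fit of all 20 libraries, 52 without both of the deepest Control libraries and 71 to 177 with 1 library left out. The 2 genes of EIC + S120 vs. EIC became 4 without the filter, 4 without robust estimation, 5 with at least 50 counts, 5 with limma-voom, 8 in 1 fit of all 20 libraries, 50 with DESeq2 and 0 to 28 with 1 library left out. The count of 0 came without EIC + S120 81 or EIC 67, where 917 and 662 genes had an unadjusted p under 0.05, and that of 28 without EIC + S120 77. The cause of these shifts was not tested. Of 73 called genes described above, 72 were tested in each fit that left out 1 library and 58 of these kept the call and direction in all of them, and 68 were tested under every alternative and 47 of these kept it. Creb3l3 passed the count filter in 5 of the 10 fits. In 1 fit of all 20 libraries the calls of Vim, Calb1 and Selplg were lost, and without the filter those of Tef, Rora and Tsc22d3. The 4 genes whose sign turned were not called. Agt ran from -0.34 to 0.029, Ace from -0.0063 to 0.13, Dbp from -0.087 to 0.052 and Egr1 from -0.44 to 0.27 with 1 library left out, Ace was at -0.0042 without Control 653 and EIC + S120 77, and Dbp at 0.00027 with RLE scaling and 0.00018 with DESeq2. In the 100 bases before the start the E-box stood in 5.17% of promoters of higher genes, 5.43% of those of lower genes and 4.44% of all, and the D-box in 1.72%, 0% and 0.295%. No paired analysis was possible because the mouse numbers differ between all groups. With Control libraries of unequal depth and 5 mice a group, small differences in genes of low count were not detectable.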

Other observations

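Of the 527 DE genes, 511 had at least 10 counts in all 10 libraries, 1 had under 10 counts in every Control library and 2 in every EIC + S120 library. Mitochondrial ATP6, a subunit of the ATP synthase, held 275 counts in Control 651 against 11104 to 36359 in the other Control libraries, and ATP8, which overlaps it on the mitochondrial genome, held 94 against 2647 to 9382. COX1, a subunit of cytochrome oxidase encoded on the same genome, held 1480951 counts in Control 651 and 492199 to 1628466 in the others. Counts of ATP6 and ATP8 were 12360 to 19626 and 3042 to 4837 in the EIC + S120 libraries, and in EIC + S60 75 they were 169 and 63.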
